A study of Mus musculus with 12 samples.

Results

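The comparison described here sets PDGFRA+ cells against GAL1- cells, both sorted from the EGFR+ cells of mouse glioblastoma (GBM). Its members are 6 of the 12 libraries of the series, 3 of PDGFRA+ cells and 3 of GAL1- cells, and all 18180 genes in the deposited table. They were taken by the sort name in the sample labels and paired by tumor (T3, T4 and T5), so that each tumor gave 1 library of each population. The other 6 libraries, PDGFRA- and GAL1+ cells of the same tumors, entered the fit and are named only where they bear on this contrast. Because PDGFRA and GAL1 were stained in separate sorts, PDGFRA+ and GAL1- cells of a tumor are not complements of each other and a cell could fall into both.

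All 4 populations share their origin. The labels give the mice a mixed background of C57Bl/6J, 129S4, FVBN/J and Balb/cJ, to which the methods add SJL. The animals were adult and carried a conditional human EGFR transgene, deletion of Cdkn2a, a further floxed allele and a conditional luciferase reporter. Tumors were started by stereotactic injection of a lentivirus carrying Cre into the striatum and were taken at end stage. The methods list a vector that encodes TGFa with Cre and a vector with Cre alone, and which of them started these tumors is not given in the sources used here. Normal brain was not analysed here. The study's text calls the sorted cells CD45-, whereas the description of the sort names antibodies against EGFR together with PDGFR or Galectin-1. Libraries were made from total RNA at 1 ng input, and recovered reads ran from 10768492 to 18522549 in PDGFRA+ and from 21728280 to 24117541 in GAL1- libraries.

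PDGFRA is the receptor tyrosine kinase for platelet-derived growth factors and, in the brain, a defining surface protein of oligodendrocyte precursor cells (OPCs), the dividing cells that give rise to oligodendrocytes. Galectin-1, encoded by Lgals1, is a small sugar-binding protein made by astrocytes, vascular cells, macrophages and many tumor cells. EGFR-driven gliomas often hold cells with an OPC-like program beside cells with an astrocyte-like or mesenchymal one. Microglia, the resident macrophages of the brain, and macrophages derived from blood monocytes are the most abundant non-tumor cells in such tumors, and vessels bring in endothelial cells and pericytes.

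Nearly all genes called with all 12 libraries were higher in PDGFRA+ cells. Genes of macrophages, microglia and blood vessels were higher in PDGFRA+ cells, for example by 69.9-fold for Arg1, while OPC genes, the cell cycle and the mouse Egfr and Pdgfra genes did not pass the test. Of 18180 genes, 1504 were called at a Benjamini-Hochberg adjusted p under 0.05 (8.27%), by limma's moderated test on the deposited log2 CPM with the tumor as a block. Of these, 1502 were higher in PDGFRA+ cells (8.26%) and 2 were lower (0.011%). All 1504 had the same direction in each of the 3 tumors. Among the higher genes the median log2 fold change was 2.03, 1257 exceeded 2-fold and 301 exceeded 8-fold. Without the adjustment 2814 genes were higher and 336 lower at p under 0.05. The median over all genes was -0.02, and 63.1% of all genes had a 95% interval of the log2 fold change that lay between -1 and 1. By point estimate 8705 genes were higher and 9475 lower, and 4770 were higher and 5074 lower in each tumor. The near absence of lower calls belongs to the fit with all 12 libraries. In the fit to the 6 libraries of this contrast 1001 genes passed as lower and 2385 as higher.

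**Figure D1:**
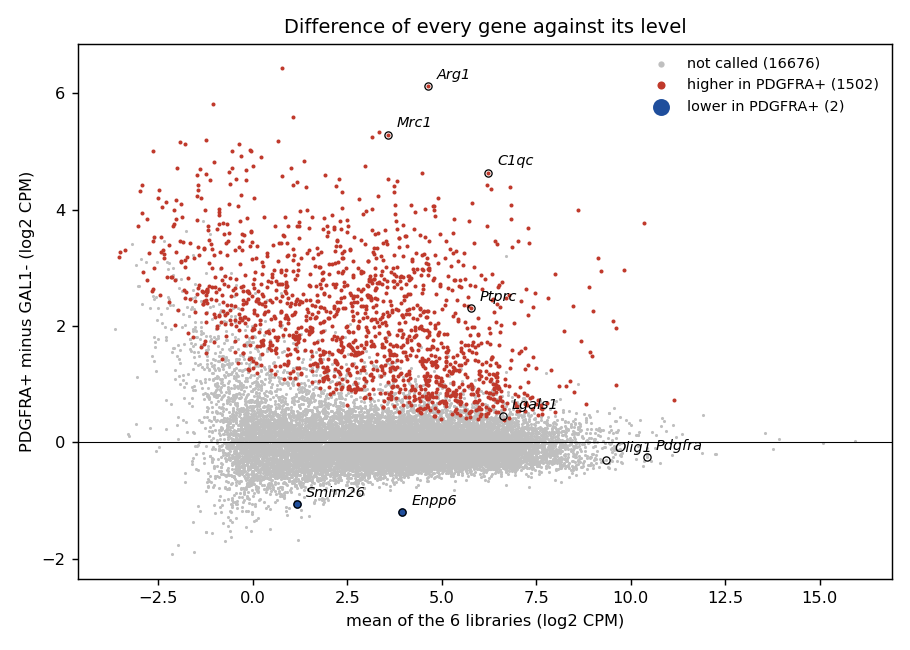
Log2 fold change, PDGFRA+ relative to GAL1- (vertical) against the mean log2 CPM of the 6 libraries (horizontal) for 18180 genes; red points are the 1502 genes called higher, blue points the 2 called lower, grey points the genes not called, and open circles mark named genes. The called genes spread upward over most of the range of levels, whereas Pdgfra and Olig1, far to the right, lie close to 0.

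The count depended on which libraries entered the fit. Without tumor T3 no gene was called in either direction (smallest adjusted p = 0.0805, 3 residual degrees of freedom, limma), with 2274 genes higher and 275 lower at an unadjusted p under 0.05, so every call given here was made with T3 in the fit. Without T5 717 genes were called, without the PDGFRA+ library of T4 747, without that of T5 996 and without the GAL1- library of T5 949. Without the tumor block 611 genes were higher and 1 lower. When limma was fitted to the 6 libraries of this contrast alone, 2385 genes were higher (13.1%) and 1001 lower (5.51%), and 1480 of the 1504 genes were among them. That fit has 2 residual degrees of freedom and takes its spread from these libraries only, so the lower genes below are given with its adjusted p beside the one from all 12 libraries. Of 188 called genes that stand in a list or are named here, 128 stayed called when any single library of the contrast was left out and 60 lost the call in at least 1 such fit. Those named here that lost it were Ccr2, Col1a1, Dusp5, Ebp, Enpp6, Glul, H2-T23, Ifi27l2a, Ighm, Klf2, Klrb1c, Lfng, Notch4, Nrp1, Nrp2, Pdgfd, Smad6 and Smim26. As a description without a model, the 3 PDGFRA+ libraries all lay above the 3 GAL1- libraries for 15.3% of genes and all below for 9.22%.

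None of the 3 genes of the sorted proteins passed the test. Pdgfra had a log2 CPM of 10.81, 10.13 and 9.95 in the PDGFRA+ libraries of T3, T4 and T5, and of 10.81, 10.34 and 10.49 in the GAL1- libraries. The ranges overlapped, with a log2 fold change of -0.25 (SE 0.412, adjusted p = 0.786, limma; 95% interval -1.18 to 0.67). GAL1- cells had not been selected for PDGFRA. Lgals1 was at 6.41, 6.85 and 7.25 in PDGFRA+ cells and at 6.05, 6.28 and 6.81 in GAL1- cells. It was the higher of the pair in every tumor by a log2 fold change of 0.46 (SE 0.225), which did not pass with all 12 libraries (adjusted p = 0.352) and did in the fit to 6 (adjusted p = 0.00778, limma). Mouse Egfr, which is measured apart from the human transgene only as far as the alignment to the mouse genome allows, was at 9.93 to 10.50 in PDGFRA+ and 10.42 to 10.65 in GAL1- libraries (log2 fold change -0.33, adjusted p = 0.649, limma).

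Ptprc, which encodes the leukocyte antigen CD45, was higher in PDGFRA+ cells. Its log2 CPM was 6.11, 7.33 and 7.31 there and 3.70, 5.18 and 4.94 in GAL1- cells. The lowest PDGFRA+ library lay above the highest GAL1- library, and the log2 fold change was 2.31 (SE 0.373, adjusted p = 0.00449, limma). Reads for Ptprc ran from 361 to 864 in GAL1- libraries, so neither population was without it. In bulk samples, more cells of a type and more RNA per cell cannot be told apart.

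**Figure D2:**
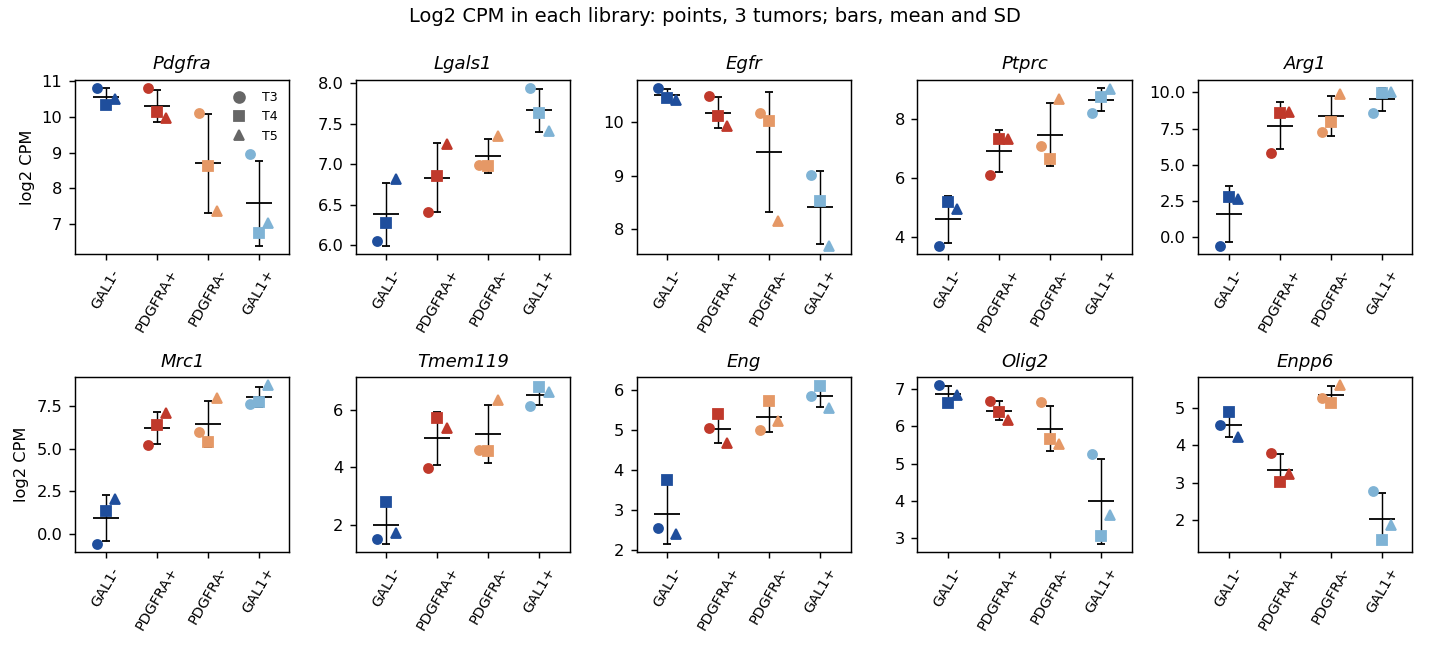
Log2 CPM of 10 genes in each of the 12 libraries (circle T3, square T4, triangle T5; black bars, mean and SD of 3 tumors; each panel has its own vertical scale, which does not start at 0). Pdgfra and Egfr overlap between PDGFRA+ and GAL1- cells, while Ptprc, Arg1, Mrc1, Tmem119 and Eng lie higher in all 3 PDGFRA+ libraries and Enpp6 lies lower.

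Macrophage genes had the largest median difference of the 52 lists. Of 20 macrophage and monocyte genes measured, 16 were higher in PDGFRA+ cells and none was lower by the test with all 12 libraries, with a median log2 fold change of 3.84 beside -0.02 over all genes. Arg1, the arginase of alternatively activated macrophages, was at 5.80, 8.60 and 8.68 in PDGFRA+ cells and at -0.67, 2.78 and 2.59 in GAL1- cells (log2 fold change 6.13, SE 0.49, adjusted p = 0.00117, limma). Both populations had their lowest Arg1 in T3, and the difference was of like size in the 3 tumors. Mrc1, the mannose receptor CD206, was at 5.19, 6.39 and 7.08 against -0.59, 1.34 and 2.02 (5.29, SE 0.43, adjusted p = 0.00117, limma). Msr1 and Cd36, scavenger receptors for modified lipoproteins, rose by 5.33 and 4.52. Siglec1, a sialic acid receptor of tissue macrophages, rose by 5.26, and Adgre1, the F4/80 antigen, by 4.50. F13a1, the A chain of clotting factor XIII made by monocytes, rose by 5.60 from only 4 to 10 reads per GAL1- library.

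4 members of the macrophage list were not called: Cd163 (1.94), Ly6c2 (1.16), Plac8 (0.45) and Vcan (-0.42). Ly6c2, Plac8 and Vcan are known from inflammatory monocytes, and Vcan, the matrix proteoglycan versican, is also a gene of OPCs and stands in the OPC list. Ccr2, the chemokine receptor of blood monocytes, rose by 1.90.

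Promoter sequences of Mrc1 and C1qc, among the leading genes, are shown beside that of the sort marker Pdgfra, which was not called. They are RefSeq windows of the GRCm38.p6 assembly, 300 bases each, from 250 before to 50 after the start of transcription, printed in the direction of the gene. The files themselves use mm39, and no position is transferred between the builds. Capitals mark AGGAAGT or its reverse complement ACTTCCT, letters of the purine-rich core bound by ETS family factors such as PU.1. The motif was chosen after these promoters had been read, and 9.35% of the 32851 windows in the table hold it. Mrc1 lies at chr2:14229164-14229463 on the plus strand, C1qc at chr4:136892865-136893164 on the minus strand and Pdgfra at chr5:75152001-75152300 on the plus strand.
Mrc1: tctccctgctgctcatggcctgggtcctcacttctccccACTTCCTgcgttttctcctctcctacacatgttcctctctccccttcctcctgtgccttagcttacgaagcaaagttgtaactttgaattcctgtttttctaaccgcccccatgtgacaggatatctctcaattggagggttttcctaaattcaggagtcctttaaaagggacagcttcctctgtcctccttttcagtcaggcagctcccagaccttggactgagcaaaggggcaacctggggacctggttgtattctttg
C1qc: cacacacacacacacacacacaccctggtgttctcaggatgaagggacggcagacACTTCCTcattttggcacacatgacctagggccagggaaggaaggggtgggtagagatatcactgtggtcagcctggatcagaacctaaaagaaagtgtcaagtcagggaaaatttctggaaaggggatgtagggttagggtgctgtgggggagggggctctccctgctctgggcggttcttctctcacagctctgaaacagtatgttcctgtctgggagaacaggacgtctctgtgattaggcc
Pdgfra: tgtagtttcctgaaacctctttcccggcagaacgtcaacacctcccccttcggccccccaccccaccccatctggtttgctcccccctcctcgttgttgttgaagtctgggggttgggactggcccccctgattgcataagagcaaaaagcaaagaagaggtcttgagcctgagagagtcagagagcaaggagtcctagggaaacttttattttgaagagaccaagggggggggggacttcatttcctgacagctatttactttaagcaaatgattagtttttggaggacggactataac
The rule for leading genes took the 8 largest positive differences among called genes with a mean log2 CPM of at least 3. Of these, windows were held for Mrc1, C1qc, Cxcl13 and Cd36. The letters occurred once each in the Mrc1 window, 211 bases before the start, and in the C1qc window, 195 bases before it, both times as the reverse complement. They were not in the windows of Cxcl13, Cd36, Pdgfra or Enpp6. A match of letters is a description and not a binding site.

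Microglial genes were also higher in PDGFRA+ cells. 12 of 14 were called, with a median log2 fold change of 2.95. Tmem119, a surface protein particular to microglia, was at 3.98, 5.73 and 5.36 in PDGFRA+ cells and at 1.52, 2.78 and 1.72 in GAL1- cells (3.01, SE 0.442, adjusted p = 0.00311, limma). P2ry12, the purinergic receptor of resting microglia, differed by 2.60 (SE 0.373, adjusted p = 0.00295, limma), with no overlap between the populations. Trem2, the lipid-sensing receptor of activated microglia and macrophages, rose by 4.75, and Fcrls by 4.58 from 2 to 19 reads per GAL1- library. The members not called were Sall1, a transcription factor of microglia that neural cells can also express (0.37, adjusted p = 0.396, limma), and Sparc (0.53), a matrix protein of glia and vessels.

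Genes that most leukocytes share rose together. 13 of 14 pan-leukocyte genes were called higher, with a median log2 fold change of 2.80 and values from 1.01 to 3.51. Arhgdib, a regulator of small GTPases in blood cells, rose by 3.51, and Laptm5, a lysosomal membrane protein of leukocytes, by 3.47. The exception was Ptprcap, which associates with CD45 in lymphocytes (1.01). The summed level of the 14 genes was at a log2 CPM of 9.56 to 10.79 in PDGFRA+ and 6.73 to 8.09 in GAL1- libraries, 9.74 to 11.86 in PDGFRA- and 11.70 to 12.18 in GAL1+ libraries. None of the 14 was at or under 3 reads in any GAL1- library.

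Lymphocytes and granulocytes gave no such pattern. Of 15 T and NK cell genes only Klrb1c, the NK1.1 receptor, was called (1.49, SE 0.312, adjusted p = 0.0158, limma), and the list median was 0.11. Over all genes 8.26% were called higher, a larger share than in this list. The tumors disagreed, and the list median was 1.45 in T3 against -0.47 and -0.32 in T4 and T5. Cd3e, a subunit of the T cell receptor complex, was at 1.85, 2.04 and 2.58 in PDGFRA+ and at 0.39, 2.40 and 2.35 in GAL1- cells, and Cd4 differed by 0.63 (adjusted p = 0.307, limma). In the neutrophil list 2 of 9 measured genes were higher, Csf3r (2.31), the receptor for granulocyte colony-stimulating factor, and Mmp9 (1.27), a gelatinase. The granule and alarmin genes S100a8, S100a9, Ngp and Ltf were at -0.73, -0.89, -0.95 and -1.53 and were not called. 1 of 8 dendritic cell genes was higher, Itgax (3.11), which encodes CD11c and is also made by activated microglia. Fscn1, fascin, an actin-bundling protein of mature dendritic cells that glial tumor cells also make, was at -0.24. Of the B cell list, 3 of 10 genes were measured and Ighm, the heavy chain of IgM, rose by 2.15. None of the 6 measured genes of red blood cells and platelets was called (median 0.63).

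Vessel genes were higher in PDGFRA+ cells as well. Of 18 endothelial genes 15 were called, with a median log2 fold change of 2.07. The median ran from 2.52 in T3 to 1.56 in T5. Eng, endoglin, a co-receptor for TGF-beta, was at 5.05, 5.40 and 4.67 in PDGFRA+ and at 2.54, 3.75 and 2.39 in GAL1- cells (2.15, SE 0.198, adjusted p = 0.00148, limma). Cd34, a sialomucin of endothelium and blood progenitors, differed by 3.01 (SE 0.287, adjusted p = 0.00164, limma). Emcn, endomucin, rose by 2.90 and Slco1a4, an organic anion transporter of the blood-brain barrier, by 2.72, from at most 28 and 32 reads per GAL1- library. Vwf (1.23), Erg (0.46) and Plvap (-0.00) were not called. The summed level of the endothelial list was 7.97 to 9.07 in PDGFRA+ and 6.53 to 7.28 in GAL1- libraries.

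7 of 14 pericyte and smooth muscle genes were called, with a median of 1.83. Anpep, an aminopeptidase of pericytes and myeloid cells, rose by 3.0, and Vtn, vitronectin, which brain pericytes secrete, by 2.21. Rgs5 (2.06), Abcc9 (2.16) and Pdgfrb (1.89) were also called. The summed level of this list differed less than its median, at 9.61 to 10.17 in PDGFRA+ and 9.68 to 9.88 in GAL1- libraries. Cspg4, which pericytes share with OPCs and which stands in both lists, was at -0.20. It made up most of that sum in every library of both populations, so the sum says little about the other members. In the fibroblast list 2 of 10 measured genes rose, Col6a3 (2.07) and Col1a1 (1.72), both collagen chains, and the list median ran from 2.75 in T3 to 0.72 in T5. No ependymal or choroid plexus gene was called among 6 measured.

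**Figure D3:**
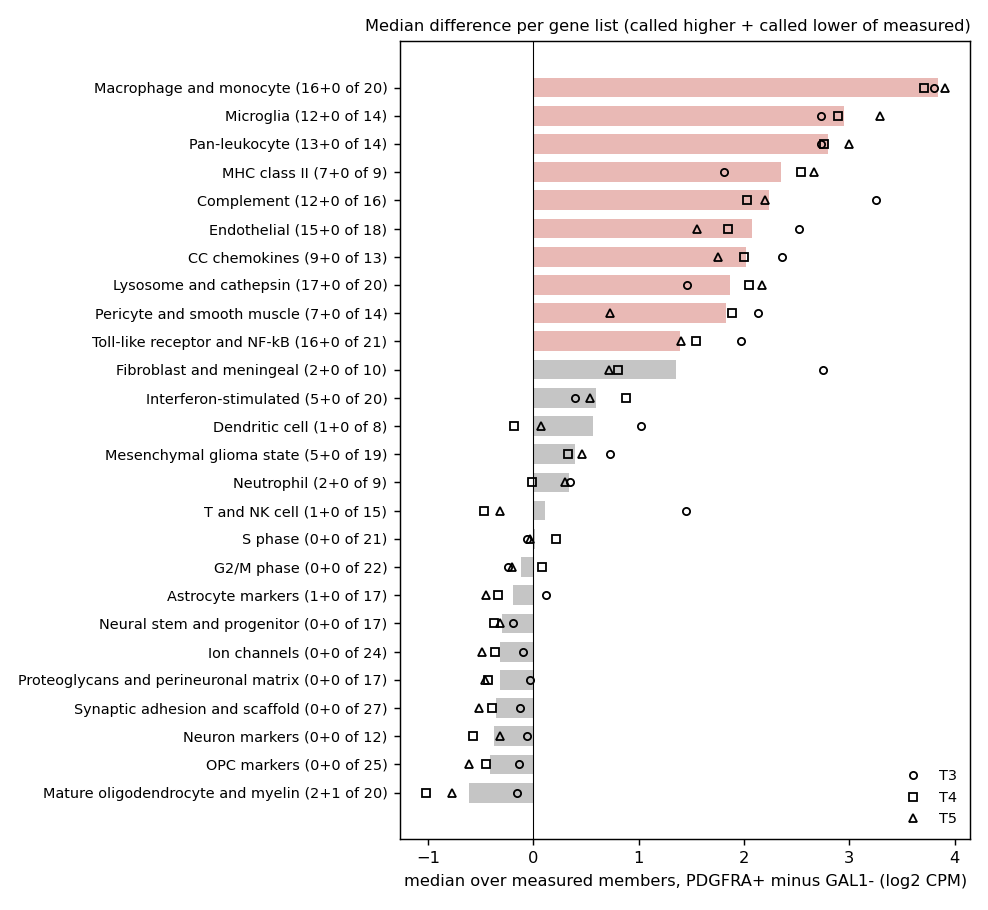
Median log2 fold change, PDGFRA+ relative to GAL1-, for 26 gene lists (bars), with the median within each tumor (circle T3, square T4, triangle T5); the numbers after each name are genes called higher plus genes called lower of those measured, and red bars are lists in which at least as many genes were called higher as were not. The macrophage, microglia and pan-leukocyte lists stand at the top, with all 3 tumors above 0, and the dendritic cell and neutrophil lists lie lower. The OPC and oligodendrocyte lists stand at the bottom, with all 3 tumors below 0.

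Genes of secreted and surface proteins of immune cells were higher too. In the CC chemokine family, small proteins that attract leukocytes, 9 of 13 were higher, with a median of 2.02. Ccl8, a monocyte attractant, was at 3.10, 3.50 and 5.37 in PDGFRA+ cells and at -2.99, -1.88 and -2.46 in GAL1- cells, where it had 3 to 6 reads per library (6.43, SE 0.554, adjusted p = 0.00117, limma). Ccl12 rose by 4.60, whereas Ccl17 (-0.54), Ccl22 (0.46) and Ccl25 (-0.34) were not called. In the CXC and CX3C families 6 of 11 were higher, led by Cxcl13 (4.63), a B cell attractant, and Cxcl16 (3.26), the ligand of CXCR6. Cx3cl1, the fractalkine of neurons, was at -0.12.

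All 9 MHC class II genes were higher in each of the 3 tumors and 7 were called, with a median of 2.35. Over all genes 4770 of 18180 were higher in each tumor. Cd74, the invariant chain, was at 9.87, 11.77 and 12.31 in PDGFRA+ and at 7.23, 8.93 and 8.90 in GAL1- cells (2.96, SE 0.463, adjusted p = 0.00395, limma). H2-DMb1, which helps to load peptides, rose by 2.57. MHC class I differed less. Tapbp (1.16) and H2-T23 (0.58) were the 2 of 13 genes called, with a median of 0.32. Of 16 complement genes 12 were higher, with a median of 2.24. C1qc and C1qb, which encode chains of the C1q recognition molecule, rose by 4.64 and 4.42, and C1qc was at 7.57, 9.01 and 9.06 against 2.58, 4.92 and 4.22.

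Among Toll-like receptors and NF-kB genes 16 of 21 were higher (median 1.39), including Tlr8 (4.84), an endosomal receptor for RNA, and Il1a (4.02), an interleukin 1 cytokine. Tlr3 (0.04), which glia also express, was not called. Of 20 lysosome and cathepsin genes 17 were higher (median 1.86). Ctss, the cathepsin S of antigen-presenting cells, rose by 4.00, while Npc1 (0.26) and Tfeb (0.19) were not called. Interferon-stimulated genes were called in 5 of 20, with a median of 0.60. Ifi27l2a rose by 2.31 and Oas1a by 1.97, both interferon-induced genes, whereas Ifit1, Ifit2 and Ifit3 were at 0.16, 0.07 and 0.00.

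OPC genes were present in both populations and none was called in either direction. All 25 were nonetheless lower in PDGFRA+ cells by point estimate, from -0.67 to -0.20, with a median of -0.41 (-0.14, -0.45 and -0.61 by tumor, T3 to T5). 22 of the 25 were lower in each tumor, and for 12 the PDGFRA+ libraries all lay below the GAL1- libraries. Over all genes 52.1% were lower by point estimate, 5074 of 18180 were lower in each tumor and 9.22% lay all below. In the fit to 6 libraries 14 of 25 passed as lower, beside 5.51% of all genes. Olig2, a transcription factor that specifies the oligodendrocyte lineage, was at 6.68, 6.38 and 6.18 in PDGFRA+ and at 7.10, 6.63 and 6.83 in GAL1- cells (-0.44, SE 0.308; adjusted p = 0.537 with 12 libraries and 0.0182 with 6, limma). Sox10, its partner in the lineage, was at 7.95, 7.58 and 7.82 against 8.21, 8.07 and 8.46 (-0.46; adjusted p = 0.594 and 0.013, limma). For both genes each tumor had the higher value in GAL1- cells.

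Other OPC genes are given with their 95% intervals. Olig1 was at 9.53, 8.97 and 9.06 in PDGFRA+ and at 9.58, 9.23 and 9.65 in GAL1- cells (95% interval -1.15 to 0.55). Cspg4, the NG2 proteoglycan, was at 9.77, 9.43 and 9.26 against 9.79, 9.55 and 9.72 (-1.16 to 0.76). For 3 of the 25 the 95% interval lay between -1 and 1, so that a 2-fold difference in either direction falls outside it: the matrix gene Matn4 (-0.91 to 0.36), the adhesion molecule Opcml (-0.83 to -0.00) and Vcan (-0.86 to 0.03). By point estimate all 3 were still lower in PDGFRA+ cells, and the whole interval of Opcml lay on that side. Across all genes the interval was that narrow for 63.1%. The summed level of the 25 genes was 12.88 to 13.37 in PDGFRA+ and 13.28 to 13.46 in GAL1- libraries, 11.74 to 12.95 in PDGFRA- libraries and 10.24 to 11.75 in GAL1+ libraries.

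**Figure D4:**
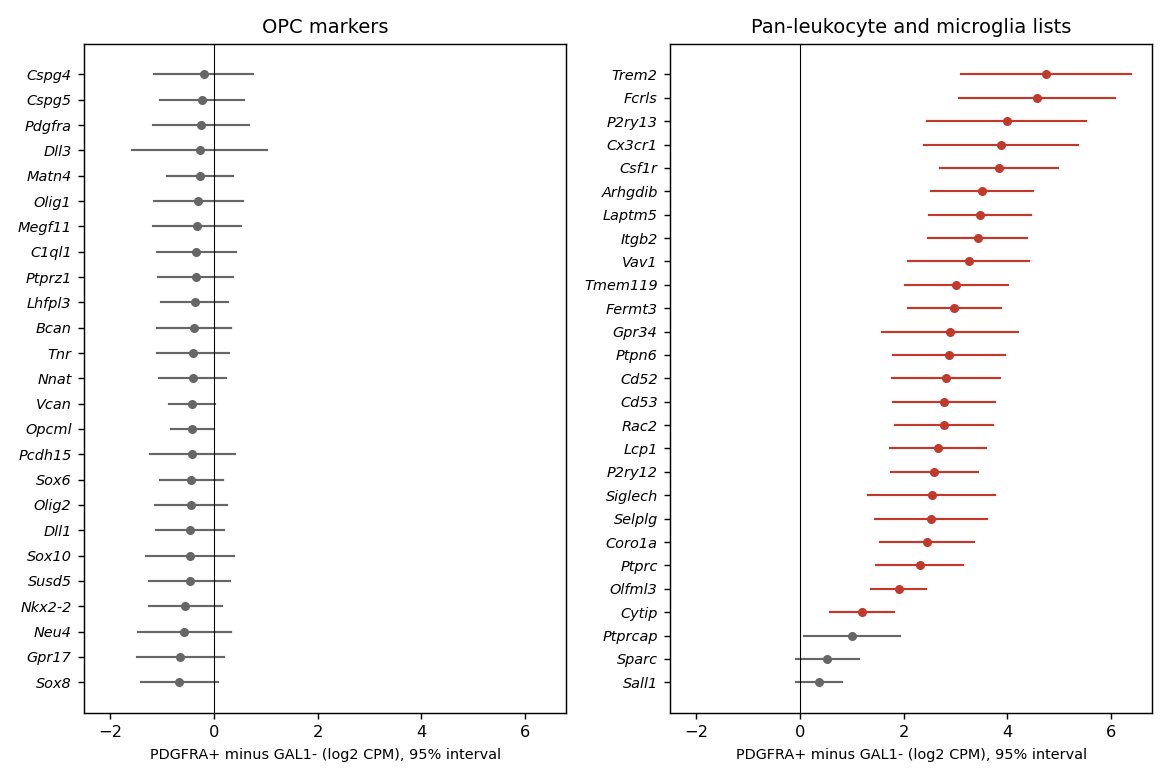
Log2 fold change, PDGFRA+ relative to GAL1-, with its 95% interval for 25 OPC genes (left) and for the pan-leukocyte and microglia lists (right); red marks genes called higher and grey genes not called. The OPC points all lie just below 0 with intervals that reach or nearly reach it, and the leukocyte points lie at 0.37 or above, with 13 of 14 pan-leukocyte and 12 of 14 microglia genes called, 1 of the latter not drawn.

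The 2 genes called lower were Enpp6 and Smim26. Enpp6, a choline phosphodiesterase of newly formed oligodendrocytes, was at 3.81, 3.02 and 3.23 in PDGFRA+ cells and at 4.56, 4.89 and 4.22 in GAL1- cells (-1.20, SE 0.298, adjusted p = 0.0358, limma). Smim26, a small integral membrane protein, was at 0.94, 0.49 and 0.49 against 1.81, 1.56 and 1.75 (-1.06, SE 0.22, adjusted p = 0.0149, limma). It had only 15 to 39 reads in PDGFRA+ libraries, lies below the level of 3 that the rule for leading genes asks for, and is named because no other gene was called lower. Leaving out any single library ended the call of Enpp6 (adjusted p = 0.0512 to 0.17, limma), and for Smim26 5 of the 6 did so (0.0307 to 0.0862).

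Myelin and mature oligodendrocyte genes had the lowest median of the lineage lists, -0.61, from -0.16 in T3 to -1.02 in T4. Besides Enpp6, Mog, a late myelin protein, was at -0.02, -0.98 and 0.18 against 0.83, 1.45 and 1.34 (-1.48; adjusted p = 0.205 with 12 libraries and 0.0311 with 6, limma), with 5 to 20 reads in PDGFRA+ libraries. Mbp, myelin basic protein, differed by -0.36 (adjusted p = 0.397 and 0.205, limma). The PDGFRA+ libraries all lay below the GAL1- libraries for Mog and not for Mbp. In the fit to 6 libraries 9 of 20 passed as lower, beside 5.51% of all genes. The 2 members of 20 called higher were Sox17 and Trf, near the 8.26% of all genes called higher. Sox17 is also a transcription factor of endothelial cells and had 1 to 4 reads per GAL1- library against 10 to 41 in PDGFRA+ libraries, and Trf, transferrin, rose by 2.65.

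The astrocyte, neural stem and neuron lists had medians of -0.20, -0.30 and -0.38, beside -0.41 for the OPC list. Of 17 astrocyte genes only Glul, glutamine synthetase, which macrophages also make, was called (1.08, SE 0.254, adjusted p = 0.0274, limma). This share is not above the 8.26% of all genes called higher. Gfap, the intermediate filament of astrocytes, was at 5.41, 6.07 and 5.75 against 5.05, 6.41 and 6.16, and Aqp4, the water channel, differed by -0.09 (adjusted p = 0.919, limma). No neural stem and progenitor gene (17 measured, median -0.30) or neuron gene (12 measured, median -0.38) was called. Of the stem genes 15 were lower by point estimate, 12 in each tumor, and 6 passed as lower in the fit to 6 libraries. Of the neuron genes 10 were lower by point estimate, 6 in each tumor, and 2 passed as lower in that fit. Over all genes 52.1% were lower by point estimate and 5.51% passed as lower in that fit. Vim and Notch1, from the stem cell list, were at -0.10 and -0.14. Map2 and Eno2, from the neuron list, were at -0.43 and -0.12.

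Genes of the synapse, which OPC-like glioma cells express, had medians near that of the OPC list. Of 27 synaptic adhesion and scaffold genes 26 were lower by point estimate, 21 in each tumor, with a median of -0.35. Over all genes 52.1% were lower by point estimate and 5074 of 18180 were lower in each tumor. None of the 27 was called with 12 libraries, while 13 passed as lower with 6, beside 5.51% of all genes. Ncam1, a neural adhesion molecule, was at 8.77, 8.26 and 8.42 against 8.94, 8.87 and 8.90 (-0.42; adjusted p = 0.463 and 0.0277, limma). Nrxn2, a presynaptic neurexin, was at -0.28 and not called in either fit. Of 27 glutamate and GABA receptors none was called and 8 passed as lower in the fit to 6 libraries (median -0.35). Gria2, an AMPA receptor subunit, was at 8.55, 8.09 and 7.89 against 8.78, 8.64 and 8.51 (-0.47; adjusted p = 0.438 and 0.0154, limma), and Grm5, a metabotropic receptor, was at -0.35. Ion channels had a median of -0.31 with 0 of 24 called, and Cacng4 and Kcnd2 were at -0.28 and -0.33. Perineuronal matrix genes had a median of -0.32 with 0 of 17 called, and Ptprz1 and Tnr were at -0.35 and -0.41. In the axon guidance list, Nrp1 (1.28) and Nrp2 (1.31), co-receptors for semaphorins and VEGF that endothelial cells also carry, were the 2 of 35 genes called. That share is not above the 8.26% of all genes called higher.

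Signaling families held called and uncalled members side by side. Of the PDGF family, the ligands Pdgfb (2.75, SE 0.375, adjusted p = 0.00255, limma) and Pdgfd (2.53) and the mural cell receptor Pdgfrb were higher, while Pdgfa (0.35), Pdgfc (0.07) and Pdgfra were not called. Pdgfb was at 4.02, 5.29 and 4.82 in PDGFRA+ and at 1.13, 2.66 and 2.11 in GAL1- cells, and the populations did not overlap. Among 8 galectins and binding partners, Lgals3 (2.83), known from macrophages, Lgals3bp (2.25) and Lgals9 (1.71) were higher, whereas Lgals1 and Lgals8 (0.04) were not called. No EGFR family receptor or ligand was called among 13 measured. Tgfa, a ligand of EGFR, was at 7.85, 7.44 and 7.43 against 8.01, 7.74 and 7.87 (-0.30, adjusted p = 0.608, limma), and Hbegf, another ligand, differed by -0.11. The largest value in that list was that of Nrg4, 3.11, which was not called either.

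Targets of MAPK signaling, which EGFR feeds, were mostly slightly lower by point estimate (14 of 15, median -0.26), beside 52.1% of all genes. Dusp5, an ERK phosphatase, was the only called member, at 5.82, 6.15 and 6.52 against 4.88, 5.13 and 5.59 (0.97, SE 0.236, adjusted p = 0.0327, limma), a call that the removal of any single library ended (0.0619 to 0.178). Ccnd1 (-0.31), which drives entry into the cell cycle, and Phlda1 (-0.20) were not called. In the Notch list 7 of 17 were higher (median 0.86). Dll4, the Notch ligand of sprouting endothelium, rose by 2.43 and Mfng, a modifier of Notch receptors, by 2.24, as did Notch2, Notch3, Notch4, Jag2 and Lfng, while Notch1 (-0.14), Dll1 (-0.46), Dll3 (-0.27) and the target Hes5 (-0.44) were not called. In the TGF-beta list 7 of 14 were higher (median 0.97), including Tgfb1 (2.78), at 5.47, 6.63 and 6.43 against 2.33, 4.02 and 3.82. Smad6 was the only 1 of 18 BMP and Id genes called (2.61), and 0 of 17 Wnt pathway genes passed, with a median of -0.18. Over all genes 8.26% were called higher, a larger share than in the MAPK, BMP or Wnt list.

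5 of 19 genes of the mesenchymal glioma state were called, with a median of 0.39. They included Fn1, fibronectin (3.17, SE 0.361, adjusted p = 0.00191, limma), Tgfbi (3.01), Lgals3 and Cebpb (2.45). Which cells their RNA came from was not tested. Cd44 (0.30), Vim (-0.10), Anxa2 (0.39), S100a6 (-0.27) and S100a10 (-0.19) were not called, and neither was Spp1 at 3.20. In the matrix lists 2 of 25 collagens and laminins rose, Lamc3 (1.92) and Col1a1, near the 8.26% of all genes called higher. 7 of 19 metalloproteinases and inhibitors rose, led by Mmp12 (3.46), the elastase of macrophages, and Mmp19 (2.52), whereas Mmp14 (0.51), Mmp15 (-0.29), Mmp16 (-0.41) and Mmp17 (-0.40), anchored to the membrane, were not called.

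Cell cycle genes did not pass the test. None of 21 S phase genes and none of 22 G2/M genes was called, with medians of 0.02 and -0.12. Mki67, a marker of cycling cells, was at 9.75, 9.41 and 9.06 in PDGFRA+ and at 9.93, 9.27 and 9.05 in GAL1- cells (-0.01, 95% interval -0.30 to 0.28), and Top2a, a topoisomerase of dividing cells, differed by -0.06 (-0.40 to 0.27). The tumors differed from each other by more than the populations did, with T3 highest in both. Immediate early genes were called in 5 of 20 (median 0.46), led by Klf2 (1.59), which endothelial cells and leukocytes express, and Atf3 (1.33), a stress-induced factor, while Fos (-0.12), Jun (-0.19) and Egr1 (-0.33) were not. No heat shock or unfolded protein response gene was called among 20.

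Hilpda, a lipid droplet protein induced by hypoxia, was the only gene called of 23 in the hypoxia and glycolysis list, at 3.59, 4.09 and 4.27 against 2.0, 1.94 and 1.61 (2.14, SE 0.299, adjusted p = 0.00281, limma). Pkm (0.38) and Aldoa (0.33), enzymes of glycolysis, were not called. Of 22 cholesterol synthesis genes only Ebp, a sterol isomerase, was called, and it rose by 0.62. Over all genes 8.26% were called higher, a larger share than in this list or the hypoxia list. 20 of the 22 were lower by point estimate (median -0.32), beside 52.1% of all genes. 10 passed as lower in the fit to 6 libraries, beside 5.51% of all genes, and Hmgcs1, which catalyzes an early step, was at -0.35. Mitochondrially encoded genes (0 of 15 called, median 0.14) and nuclear RNAs (0 of 11 called, median -0.22) held no called gene.

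Set beside the same GAL1- libraries, PDGFRA- cells gave 2949 genes higher (16.2%) and 1251 lower (6.88%), and the comparisons share those controls. Pdgfra was lower there by 1.85 on the log2 scale (adjusted p = 0.0126, limma), where PDGFRA+ cells were at -0.25. Ptprc stood at 2.86 over GAL1- cells in PDGFRA- and at 2.31 in PDGFRA+ cells, Arg1 at 6.81 and 6.13, Mrc1 at 5.52 and 5.29, and Eng at 2.43 and 2.15. PDGFRA+ and PDGFRA- cells compared directly gave 0 called genes (0.0%, limma), with 2137 at an unadjusted p under 0.05. Enpp6 was the reverse case, at 0.79 over GAL1- cells in PDGFRA- and at -1.20 in PDGFRA+ cells, with a difference between the 2 of -1.99 that did not pass (adjusted p = 0.202, limma). Of the 1504 called genes, 183 stand in any of the 52 lists and 70 in lists of other cell types. The lists hold few genes, so these counts do not give the share of called genes that such cells express. Within the lists of other cell types, higher calls ran from 13 of 14 pan-leukocyte genes to 0 of 6 red blood cell and platelet genes. Over all genes 8.26% were called higher. For 182 of the 1502 higher genes at least 1 GAL1- library had 3 reads or fewer, so that their fold change rests on few reads. Whether immune and vascular RNA accounts for any of the called genes was not tested.

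**Figure D5:**
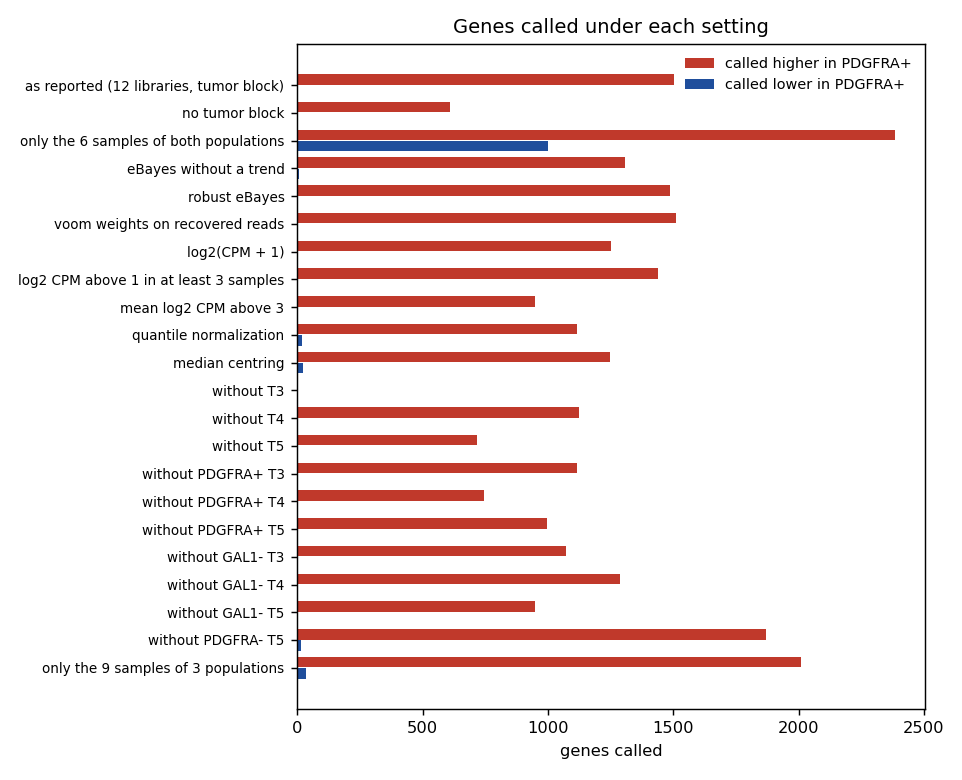
Number of genes called higher (red) and lower (blue) in PDGFRA+ than in GAL1- cells under each setting of the analysis, with the reported fit at the top. Higher calls outnumber lower calls in every setting that made any, and the setting without T3 made none.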

How the data were processed

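Libraries of 4 EGFR+ populations from 3 tumors were analysed (12 samples). Per the study's methods and the submitters' processing notes, the authors trimmed reads with fastp, aligned them with STAR to mm39, counted exons with featureCounts with multi-mapping reads as fractions, kept genes above 1 CPM in at least 3 samples and applied TMM and voom. The authors deposited log2 CPM values for 18180 genes. Here, limma 3.58.1 in R 4.3.3 was fitted to all 12 samples on those values, with a term per population, the tumor as a block, a variance trend on the mean (degrees of freedom 6 residual, 3.495 prior) and Benjamini-Hochberg adjustment over all genes. Reported differences are PDGFRA+ minus GAL1- in log2 CPM, with moderated standard errors (SE) and 95% intervals.

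Reads were recovered from the lowest value of each library (offset 0.5). Between 41.3% and 59.2% of values came out whole within 0.01 reads, so no count test was run, and 3 reads were taken as a floor that covers counting error only. Libraries of the same number come from the same tumor, as the labels give it. After group means were removed, PDGFRA+ and GAL1- libraries correlated across genes at 0.581, 0.494 and 0.662 within T3, T4 and T5. Between tumors the values were -0.454 to -0.155. Removing the means makes the deviations of a population sum to 0, so values above 0 within tumors bring values below 0 between tumors. The fit was tested on simulated data before use.

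The comparison, the gene lists and the genes named were chosen with earlier results of these data known. Named genes are the sort markers, and the 8 largest differences and the 5 smallest p-values in each direction among called genes. Both of these sets asked for a mean log2 CPM of at least 3 and the same direction in all tumors, with predicted genes out. Up to 2 called members per list and direction are named, or else the 2 members with the highest CPM. OPC genes whose 95% interval lies within 1 of 0 are named too. Other members of a list are named to complete a count or a family, after their values were seen. Alternatives were other fits, filters, scalings and the removal of libraries. No mm39 annotation was used, and promoter sequences are from RefSeq, GRCm38.p6. Some genes of the lists are counted but not reported here by name. Single-cell data of the study were not analysed here. Figures were drawn with matplotlib 3.10.9.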

Additional observations from a re-analysis of the deposited data

How the results depend on the processing

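The replicate block is the tumor, and without it 612 genes were called, 611 higher and 1 lower. The fit to the 6 paired libraries called 3386, 2385 higher and 1001 lower, and Lgals1 passed there at 0.46. Other counts were 949 (948 higher, 1 lower) with a mean log2 CPM above 3 and 821 (821 higher, 0 lower) at an adjusted p under 0.01. Lower calls were 8 without a trend, 5 with voom weights, 4 with log2(CPM + 1), 18 after quantile normalization and 23 after median centring, scalings that moved the median of all genes to -0.15 and -0.13. A fit to the 9 libraries without PDGFRA-, added after the data were seen, gave 35.

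Leaving out a tumor or a library gave 0 to 1886 calls, 0 to 1872 higher and 0 to 14 lower. The highest came without PDGFRA- T5, added after the data were seen, and the 0 without T3. With the same 3 residual degrees of freedom, 1126 genes were higher without T4 and 717 without T5, and the cause was not tested. Without the GAL1- library of T5 947 were higher, and without the PDGFRA+ library of T4 747.

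List medians moved as follows. With log2(CPM + 1) the pan-leukocyte, microglia and macrophage medians were 2.62, 2.52 and 3.39. The microglia median was 2.60 with a mean log2 CPM above 3, and the macrophage median was 3.73 under quantile normalization and also under median centring. Leaving out libraries gave -0.69 to -0.17 for OPC, 2.49 to 3.18 for pan-leukocyte, 2.61 to 3.33 for microglia, 3.52 to 4.20 for macrophage and -0.62 to -0.14 for synaptic genes, and 2.08 to 2.65 for Ptprc.

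Genes that were not called changed sign in some of these fits. They ranged from -0.53 to 0.24 for Aqp4 (0.15 with voom weights), -0.44 to 0.17 for Atp1b2, -0.67 to 0.028 for Cacng4, -0.11 to 0.92 for Cd3e, -0.55 to 0.28 for Cspg4, -0.55 to 0.0084 for Egfr, -0.46 to 0.33 for Gfap, -0.45 to 0.33 for Hbegf, -0.52 to 0.070 for Matn4, -0.11 to 0.079 for Mki67, -0.64 to 0.020 for Nrxn2, -0.67 to 0.090 for Pdgfra, -0.57 to 0.11 for Slc1a2, -0.13 to 0.031 for Top2a and -0.27 to 0.028 for Vim. The cause was not tested.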
